A study of Mus musculus with 67 samples.

Results

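The RNA of 10 cytokine and chemokine genes was followed over 67 libraries of sorted mouse monocytes and their marrow progenitors, in 28 groups held in 3 tables. The genes were chosen by symbol among the 24421 genes that each table lists, and all 10 were found in each: Il1b, Il1rn, Tnf, Il10, Ccl2, Ccl3, Ccl4, Ccl5, Cxcl2 and Cxcl10. Monocytes are blood phagocytes made in the bone marrow, and they secrete these small proteins when they meet microbes, damaged tissue or other cytokines. Interleukin 1 beta (Il1b) and tumour necrosis factor (Tnf) start inflammation. The interleukin 1 receptor antagonist (Il1rn) blocks the interleukin 1 receptor, and interleukin 10 (Il10) restrains inflammation. Chemokines attract leukocytes. Ccl2 draws monocytes through Ccr2, and Ccl3, Ccl4 and Ccl5 draw T cells, NK cells and monocytes. Cxcl2 draws neutrophils through Cxcr2, and Cxcl10, an interferon-induced chemokine, draws activated T cells through Cxcr3.

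Ly6C marks classical monocytes (Ly6C+), is absent or low on patrolling monocytes (Ly6C-), and is intermediate on Ly6Cint cells. The 7-week table holds C57BL/6 mice. Its marrow groups are Ly6C- monocytes (n = 4), Ly6C+ monocytes (n = 3), cMoP, the common monocyte progenitor (n = 4), and MDP, the earlier progenitor shared with dendritic cells (n = 4). Its blood groups are Ly6C- (n = 3), Ly6Cint (n = 3) and Ly6C+ cells (n = 4). In the knockout table, with n = 2 in each group, blood Ly6C+ and Ly6Cint cells came from ko mice, and cells of all 3 kinds from wt mice, aged 16 weeks on a mixed background. The sample labels say only ko and wt, the series title names C/EBPb, and no ko Ly6C- library was analysed here. The same table holds marrow MDP, cMoP and Ly6C+ cells of C57BL/6 mice of 8 weeks. The transfer table is from C57BL/6 mice of 8 weeks, with n = 2 in each group. It holds transferred cells, called grafts here, taken from blood and from spleen at 24, 36 and 48 h. It also holds the marrow Ly6C+ cells before transfer, and host cells of both tissues, labelled 24 h. The titles of these host cells give Gr1 as the sorting marker, with M, INT or P. They are read and written here as Ly6C-, Ly6Cint and Ly6C+ cells. Whether these Gr1 gates hold the same cells as the Ly6C gates of the other tables was not tested. Blood graft replicates are labelled AC and B, and spleen graft replicates B and C. What AC or a letter shared between tissues stands for is not stated. The labels do not say how grafts were told from host cells. Nor do they say whether replicates are separate animals, so p-values measure the spread between these libraries, which may be technical. Marrow cells, and blood cells of the first 2 tables, were enriched for CD115. The other blood cells were prepared on Ficoll, and the spleen cells after red cell lysis, so preparation and group cannot be told apart in comparisons that cross them.

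The depth, as reads on the listed genes, was 577690 to 3643327 for 7-week libraries and 942751 to 5478761 for libraries of the knockout table. For transfer libraries it was estimated from the spacing of low values as 502661 to 2273191. Levels are given as reads per 1000000 reads (RPM). In the 7-week and knockout tables the library total was taken as 10000000. In the transfer table it was the sum over the listed genes, so levels there are on another scale. A single read is worth 0.193 to 1.11 RPM in the 7-week table, 0.146 to 0.833 RPM in the knockout table and 0.4401 to 1.99 RPM in the transfer table. Log2 ratios are given with their SE and were fitted with limma on log2(RPM + 1), which understates the change of low genes. They are called at a Benjamini-Hochberg adjusted p under 0.05 over all genes tested in the table. Il10 passed the filter of 2 RPM in no table, and Cxcl2 did not pass it in the 7-week table, so 8 members were tested there and 9 in each of the others. Ly6c2, a gene of the sorted antigen, was at 10.9 to 53.9 RPM in 7-week blood Ly6C- libraries and 2465 to 3055 RPM in blood Ly6C+ libraries. Treml4, a gene of Ly6C- monocytes, was at 459 to 683 RPM in blood Ly6C- and 56.7 to 101 RPM in blood Ly6C+ libraries.

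Promoter letters of 3 members are shown: Cxcl10 and Il1b, which moved in opposite directions between Ly6C- and Ly6C+ cells, and Cxcl2, which stayed near 0 in the 7-week table. The 250 bases before the RefSeq transcription start are printed 5′ to 3′ on the strand of the gene, from GRCm38.p6. They lie at chr5:92348890-92349139 (minus strand) for Cxcl10, chr5:90903649-90903898 (plus strand) for Cxcl2 and chr2:129371140-129371389 (minus strand) for Il1b. Capitals mark letters that match any of 4 motifs, searched on both strands. The NF-kappaB motif was GGGA and TTCC with any 2 letters between them, and the interferon-stimulated response element was GAAA and GAAA with any 2 letters between them. The AP-1 motif was TGANTCA and the C/EBP motif TTGCNNAA.
Cxcl10: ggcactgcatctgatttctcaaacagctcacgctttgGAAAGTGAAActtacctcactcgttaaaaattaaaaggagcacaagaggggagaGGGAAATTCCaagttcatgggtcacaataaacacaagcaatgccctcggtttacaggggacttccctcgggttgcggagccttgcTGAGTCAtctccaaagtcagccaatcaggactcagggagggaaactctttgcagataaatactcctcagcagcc
Cxcl2: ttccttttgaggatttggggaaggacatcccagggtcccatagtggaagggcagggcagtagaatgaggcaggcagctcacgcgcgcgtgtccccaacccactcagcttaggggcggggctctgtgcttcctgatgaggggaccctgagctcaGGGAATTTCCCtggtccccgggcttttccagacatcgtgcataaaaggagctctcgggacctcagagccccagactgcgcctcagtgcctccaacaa
Il1b: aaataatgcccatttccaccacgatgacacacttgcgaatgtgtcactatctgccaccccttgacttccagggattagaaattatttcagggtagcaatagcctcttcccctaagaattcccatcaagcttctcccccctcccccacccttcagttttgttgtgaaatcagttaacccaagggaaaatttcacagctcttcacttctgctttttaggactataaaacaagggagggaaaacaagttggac
Cxcl10 held the first 3 of these motifs. Its interferon-stimulated response element starts 213 bases, its NF-kappaB motif 159 bases and its AP-1 motif 74 bases before the start. Cxcl2 held 2 overlapping NF-kappaB matches on opposite strands, starting 97 and 96 bases before the start. The windows of Il1b, Tnf and Ccl3 held none of the 4 letter strings, and 1 of the 3 windows of Il1rn held an AP-1 motif. Il10, Ccl2, Ccl4 and Ccl5 are named only. Of the 32851 windows of the same length in the table, 1.21% held the NF-kappaB motif and 2.98% the interferon-stimulated response element. The AP-1 motif was in 6.75% and the C/EBP motif in 9.56%. A match describes letters and is not a bound site.

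Il1b was close to absent in progenitors and was the most abundant member in Ly6C- monocytes of both tissues. Blood Ly6C- libraries had 248, 251 and 133 RPM. Blood Ly6Cint libraries had 119, 94.1 and 46.6 RPM, and blood Ly6C+ libraries 34.4, 20.7, 15.8 and 34.8 RPM. Every blood Ly6C- library lay above every Ly6Cint library, and these above every Ly6C+ library. Marrow Ly6C- libraries had 94.5, 114, 168 and 172 RPM, and marrow Ly6C+ libraries 3.09, 0.608 and 1.45 RPM. The progenitors had 0.604, 0, 0.909 and 0.275 RPM in cMoP and 0.591, 0.194, 1.14 and 1.35 RPM in MDP. In the order of levels, blood and marrow Ly6C- cells overlapped, as did marrow Ly6C- and blood Ly6Cint cells, and so did marrow Ly6C+ cells and both progenitors. The log2 ratio of Ly6C- to Ly6C+ cells was 5.73 ± 0.37, adjusted p = 6.50e-13 in marrow. In blood it was 2.96 ± 0.37, adjusted p = 6.59e-07. Blood Ly6C+ cells were above marrow Ly6C+ cells by 3.37 ± 0.37, adjusted p = 5.12e-08. Blood Ly6Cint cells were above blood Ly6C+ cells by 1.64 ± 0.37, adjusted p = 0.00196. In sorted bulk RNA, a higher level per cell and a larger share of expressing cells cannot be told apart.

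Between blood Ly6C- and Ly6Cint cells Il1b rose by 1.32 ± 0.40, adjusted p = 0.0369. The call ended without Ly6Cint replicate 3 (0.93, adjusted p = 0.182) or 2 (1.43, adjusted p = 0.0567). It also ended without Ly6C- replicate 2 (1.17, adjusted p = 0.151) or 1 (1.17, adjusted p = 0.073), and under 7 other settings, DESeq2 among them (1.11, adjusted p = 0.0637). Neutrophils also hold Il1b, and 13 neutrophil markers were summed. The sum was 63.7 to 111 RPM in blood Ly6C- and 199 to 249 RPM in blood Ly6C+ libraries. In marrow it was 107 to 755 RPM in Ly6C- and 414 to 580.1 RPM in Ly6C+ libraries. S100a8, a defining neutrophil gene, was at 2.32 to 3.86 RPM in blood Ly6C- and 0.4297 to 26.8 RPM in blood Ly6C+ libraries.

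Il1rn followed another order, with its highest levels in blood and no call between Ly6C- and Ly6C+ cells. Marrow Ly6C+ libraries had 6.95, 6.08 and 5.07 RPM, cMoP libraries 2.21, 0.869, 1.82 and 0.549 RPM and MDP libraries 0.197, 0.194, 0.285 and 0.2704 RPM, with no overlap among these groups. Blood Ly6C+ libraries had 14.7, 17.7, 13.2 and 13.3 RPM, above every marrow library. Il1rn rose between marrow Ly6C+ cells and cMoP (1.63 ± 0.37, adjusted p = 7.97e-04) and between blood and marrow Ly6C+ cells (1.16 ± 0.37, adjusted p = 0.0195). The second call ended without marrow Ly6C+ replicate 3 (1.17, adjusted p = 0.0534) or 4 (1.06, adjusted p = 0.0756). In blood Ly6C- libraries Il1rn was at 5.21, 17.4 and 14.7 RPM, and in Ly6Cint libraries at 8.35, 14.2 and 4.87 RPM. Both groups overlapped blood Ly6C+, and the log2 ratio of Ly6C- to Ly6C+ cells was -0.36 ± 0.37, adjusted p = 0.531. Marrow Ly6C- libraries had 4.48, 5.88, 3.51 and 3.34 RPM, with a log2 ratio to marrow Ly6C+ cells of -0.42 ± 0.37, adjusted p = 0.38.

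Tnf was highest in blood Ly6C- monocytes, which had 8.11, 33.4 and 33.4 RPM. Blood Ly6Cint libraries had 0.835, 5.06 and 6.96 RPM, and blood Ly6C+ libraries 3.54, 9.99, 4.402 and 2.15 RPM. Of the Ly6C- libraries, replicates 2 and 3 stood above all others of the table, and replicate 1 overlapped the Ly6C+ group. Marrow Ly6C- libraries had 6.97, 3.27, 2.93 and 0 RPM, all below the blood Ly6C- libraries. Tnf rose in blood Ly6C- against Ly6Cint cells (2.31 ± 0.59, adjusted p = 0.0166) and against Ly6C+ cells (2.03 ± 0.55, adjusted p = 0.00877). It was lower in marrow than in blood Ly6C- cells (-2.70 ± 0.55, adjusted p = 0.00528). Without blood Ly6C- replicate 2 the 3 calls ended, at 1.99, adjusted p = 0.0931, at 1.71, adjusted p = 0.0625 and at -2.38, adjusted p = 0.0663. Without replicate 3 they also ended, at 1.99, adjusted p = 0.104, at 1.71, adjusted p = 0.0547 and at -2.38, adjusted p = 0.0593. The first ended too without Ly6Cint replicate 1 (1.67, adjusted p = 0.103). Elsewhere in marrow Tnf was at 6.95, 4.86 and 5.799 RPM in Ly6C+ libraries, 5.03, 2.898, 3.03 and 3.02 RPM in cMoP and 3.94, 2.32, 2.85 and 3.25 RPM in MDP, and no step among these was called.

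Il10 was at or near 0 throughout. In the 7-week table it had 1 or more reads in 6 of 25 libraries, the highest a blood Ly6C- library at 1.16 RPM. In the knockout table it was at 0 in all 16 libraries, and in the transfer table it was above 0 in 3 of 26, up to 2.19 RPM. Differences in Il10 were not detectable at this depth.

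**Figure D1:**
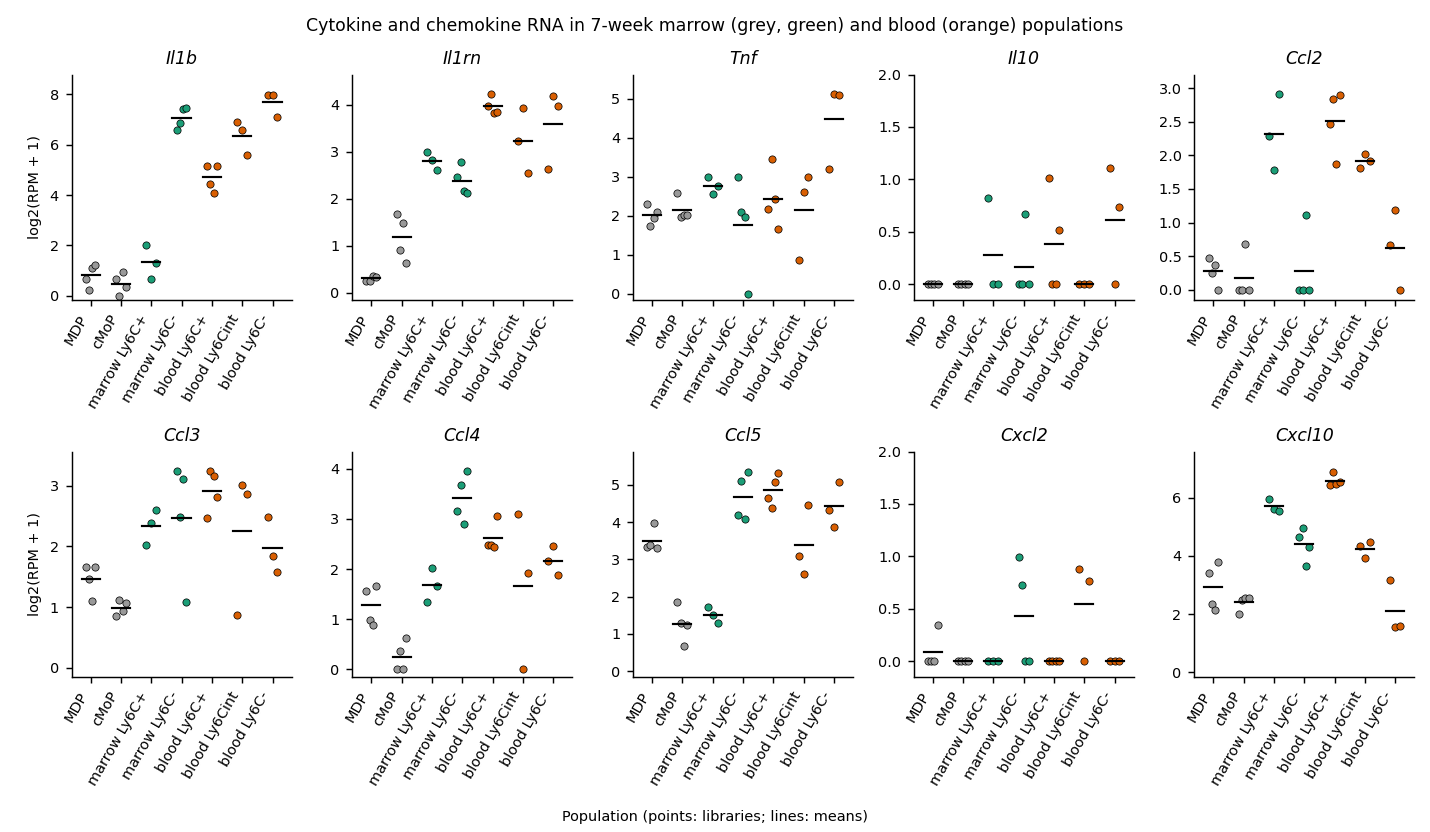
Level of each of the 10 genes in the 25 libraries of the 7-week table, as log2(RPM + 1) on the vertical axis with a scale of its own for each gene, for 7 populations on the horizontal axis. Points are libraries and lines are group means. Il1b is highest in Ly6C- cells of both tissues, Cxcl10 in Ly6C+ cells, and Tnf in blood Ly6C- cells.

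Cxcl10, whose promoter held the interferon element above, ran opposite to Il1b among blood populations and between Ly6C- and Ly6C+ cells of marrow. Over all 25 libraries r of the pair was 0.13. Blood Ly6C- libraries had 8.11, 1.93 and 2.002 RPM. Blood Ly6Cint libraries had 19.2, 14.2 and 21.6 RPM, and Ly6C+ libraries 85.002, 118, 88.05 and 91.96 RPM, with no overlap among the 3 groups. The log2 ratio of Ly6C- to Ly6C+ cells was -4.48 ± 0.38, adjusted p = 4.01e-10. Its steps were -2.33 ± 0.38, adjusted p = 6.02e-05 for Ly6Cint against Ly6C+ cells and -2.14 ± 0.41, adjusted p = 0.00175 for Ly6C- against Ly6Cint cells. In marrow, Ly6C- libraries had 24.4, 30.1, 11.7 and 18.9 RPM and Ly6C+ libraries 61.8, 47.4 and 45.7 RPM. The cMoP libraries had 3.02, 4.64, 4.85 and 4.94 RPM, and the MDP libraries 9.65, 4.06, 3.42 and 12.7 RPM. Marrow Ly6C+ libraries were above every other marrow library, with a log2 ratio to cMoP of 3.30 ± 0.38, adjusted p = 5.09e-08. Cxcl10 fell between marrow Ly6C- and Ly6C+ cells (-1.30 ± 0.38, adjusted p = 0.00696), and was higher in marrow than in blood Ly6C- cells (2.29 ± 0.38, adjusted p = 4.99e-04).

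In the 7-week table Ccl2 was low and found mainly in Ly6C+ cells. Blood Ly6C- libraries had 0.579, 1.29 and 0 RPM, Ly6Cint libraries 2.504, 3.03 and 2.78 RPM and Ly6C+ libraries 4.55, 6.15, 2.64 and 6.45 RPM. Marrow Ly6C- libraries had 0, 0, 1.17 and 0 RPM, and marrow Ly6C+ libraries 3.86, 2.43 and 6.52 RPM. The cMoP libraries had 0, 0, 0.606 and 0 RPM and the MDP libraries 0.394, 0.194, 0.285 and 0 RPM. In both tissues every Ly6C- library lay below every Ly6C+ library. Since the low groups held 2 or 3 reads in all, ratios of summed reads are given, with exact intervals that cover counting error only. Blood Ly6C- cells were lower than Ly6C+ cells by a factor of 8.28 (95% exact interval 2.61 to 42.1), with a limma adjusted p = 2.73e-04. In marrow the factor was 12.8 (95% exact interval 3.07 to 114), with adjusted p = 4.07e-05. Marrow Ly6C+ cells were higher than cMoP by a factor of 31.999 (95% exact interval 7.66 to 284), with adjusted p = 2.43e-05. Blood Ly6C- cells were lower than Ly6Cint cells by 4.399 (95% exact interval 1.13 to 24.9), called by limma (adjusted p = 0.0348) and not by edgeR (adjusted p = 0.201). That call also ended without Ly6Cint replicate 1, 2 or 3 (adjusted p = 0.0653, 0.0834 and 0.0702) or Ly6C- replicate 3 (adjusted p = 0.216).

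Ccl5 was present in MDP, low in cMoP and marrow Ly6C+ cells, and higher in marrow Ly6C- cells and in blood. The cMoP libraries had 2.62, 1.45, 0.606 and 1.37 RPM and the MDP libraries 9.06, 9.48, 14.8 and 8.92 RPM, which did not overlap (-2.23 ± 0.37, adjusted p = 6.68e-05). Marrow Ly6C- libraries had 17.4, 33.3, 15.8 and 40.04 RPM, and marrow Ly6C+ libraries 2.32, 1.82 and 1.45 RPM, again without overlap (3.18 ± 0.40, adjusted p = 2.13e-07). In blood, Ly6C- libraries had 19.1, 13.5 and 32.7 RPM, Ly6Cint libraries 7.51, 5.06 and 20.9 RPM and Ly6C+ libraries 24.3, 19.98, 32.6 and 38.7 RPM. Blood Ly6C+ cells were far above marrow Ly6C+ cells (3.35 ± 0.40, adjusted p = 1.86e-07). Blood Ly6C- and Ly6C+ cells overlapped (-0.44 ± 0.40, adjusted p = 0.485). The fall in blood Ly6Cint against Ly6C+ cells (-1.48 ± 0.40, adjusted p = 0.00764) was not called by edgeR (-1.10, adjusted p = 0.0553) nor without Ly6Cint replicate 2 (-1.09, adjusted p = 0.0754).

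T cells and NK cells are rich in Ccl5, and 15 of their markers were summed. The sum was 0 to 7.19 RPM in marrow Ly6C- and 10.1 to 16.2 RPM in marrow Ly6C+ libraries. It was 183 to 271 RPM in cMoP and 56.7 to 72.7 RPM in MDP libraries, and in blood 16.2 to 28.03 RPM in Ly6C-, 13.2 to 18.4 RPM in Ly6Cint and 18.4 to 28.2 RPM in Ly6C+ libraries. Cd3e, a defining T cell gene, was at 0 in all marrow libraries and at most 2.02 RPM in blood. Ncr1, a defining NK cell gene, was at 0 in all 25 libraries. The part of these cells in Ccl5 was not tested.

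Ccl3 and Ccl4 reached at most 14.5 RPM in the 7-week table. Marrow Ly6C+ libraries had 3.09, 4.26 and 5.07 RPM of Ccl3, above the cMoP libraries at 0.805, 1.16, 0.909 and 1.099 RPM and the MDP libraries at 2.17, 1.74, 1.14 and 2.16 RPM. The rise over cMoP (1.35 ± 0.45, adjusted p = 0.0196) ended without Ly6C+ replicate 3 (1.33, adjusted p = 0.0555) or 4 (1.22, adjusted p = 0.0735). Marrow Ly6C- libraries had 8.46, 4.57, 7.61 and 1.11 RPM and overlapped marrow Ly6C+. In blood, Ccl3 ranged from 2.002 to 4.63 RPM in Ly6C-, 0.835 to 7.08 RPM in Ly6Cint and 4.55 to 8.45 RPM in Ly6C+ libraries. Ccl4 was at 7.96, 11.8, 6.44 and 14.5 RPM in marrow Ly6C- and 1.54, 3.04 and 2.17 RPM in marrow Ly6C+ libraries. The cMoP libraries had 0, 0.2898, 0 and 0.549 RPM of it and the MDP libraries 1.97, 0.967, 0.856 and 2.16 RPM. Each marrow Ly6C- library lay above each other library of marrow, and Ccl4 rose over marrow Ly6C+ cells by 1.74 ± 0.45, adjusted p = 0.00275. Marrow Ly6C+ cells were higher than cMoP by a ratio of summed reads of 11.9 (95% exact interval 3.05 to 67.02), with adjusted p = 0.0138. That call ended without Ly6C+ replicate 3 (adjusted p = 0.0664). In blood, Ccl4 ranged from 2.67 to 4.499 RPM in Ly6C-, 0 to 7.51 RPM in Ly6Cint and 4.402 to 7.31 RPM in Ly6C+ libraries, and no contrast of blood populations was called for Ccl3 or Ccl4 with all libraries. Cxcl2, which carries the NF-kappaB letters above, was above 0 in 5 of 25 libraries, at most 0.995 RPM, and was not tested.

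**Figure D2:**
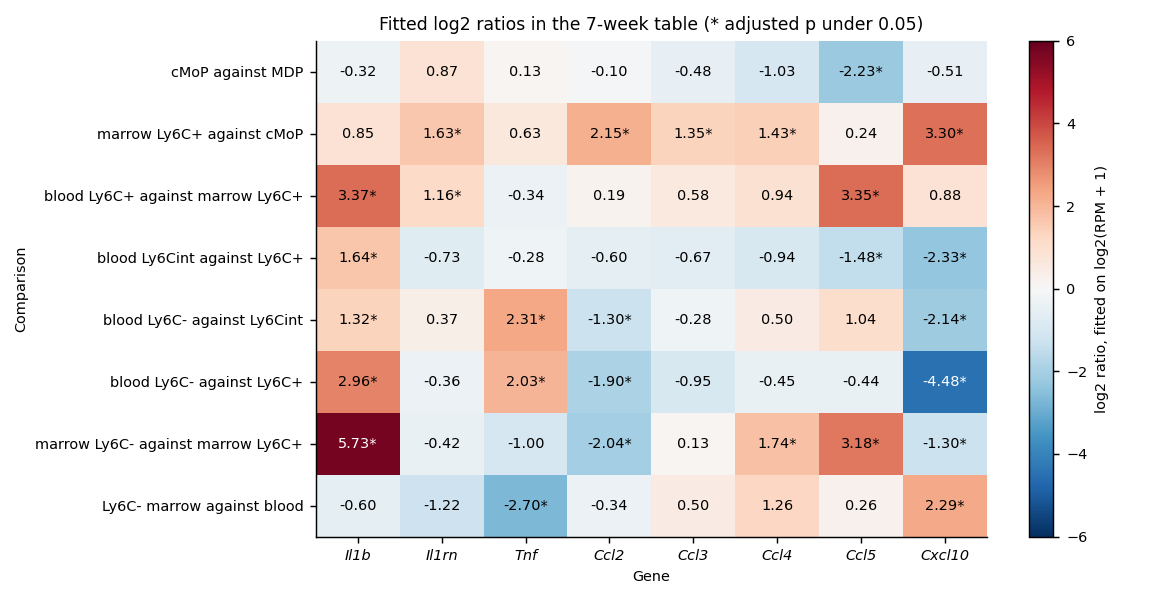
Fitted log2 ratio (color and printed number) of the 8 tested members, on the horizontal axis, in 8 comparisons of the 7-week table, on the vertical axis, with the population named first over the one named second. Asterisks mark a limma adjusted p under 0.05. Il1b and Cxcl10 have opposite signs in Ly6C- against Ly6C+ cells of both tissues.

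The calls are counted here beside the share of all genes tested that was called the same way, with the median log2 ratio of the members and then of all genes. In cMoP against MDP 1 of 8 members fell, beside 4.05% of all genes (medians -0.40 and -0.01). In marrow Ly6C+ cells against cMoP 5 of 8 rose, Il1rn, Ccl2, Ccl3, Ccl4 and Cxcl10, beside 15.3% (medians 1.39 and -0.17). Between blood and marrow Ly6C+ cells Il1b, Il1rn and Ccl5 rose, 3 of 8, beside 7.32% (medians 0.91 and -0.19). In blood Ly6Cint against Ly6C+ cells 1 rose and 2 fell, beside 7.95% and 19.2% (medians -0.70 and -0.21). In blood Ly6C- against Ly6Cint cells Il1b and Tnf rose and Ccl2 and Cxcl10 fell, beside 7.25% and 1.62% (medians 0.43 and 0.20). Against Ly6C+ cells the same genes rose and fell, beside 9.86% and 10.5% (medians -0.44 and 0.00). In marrow Ly6C- against Ly6C+ cells 3 rose and 2 fell, beside 11% and 29.1% (medians -0.15 and -0.28). Between marrow and blood Ly6C- cells 1 rose and 1 fell, beside 0.598% and 1.94% (medians -0.04 and -0.07). The share of all genes that was higher depended on the scaling, while quantile scaling moved no count of members called by more than 1.5 times. With it, 1461 of 2831 called genes were higher, against 833 of 2959 as fitted here between blood and marrow Ly6C+ cells. In blood the split was 1194 of 2549 against 904 of 3092 for Ly6Cint against Ly6C+ cells and 315 of 601 against 825 of 1009 for Ly6C- against Ly6Cint cells. It was 2027 of 4232 against 1256 of 4565 for Ly6C- against Ly6C+ cells of marrow and 90 of 245 against 68 of 289 between marrow and blood Ly6C- cells. With edgeR on recovered reads it was 2382 of 4533 against 1737 of 4286 for marrow Ly6C+ cells against cMoP. Some calls appeared where 1 library was left out. Il1b rose in marrow Ly6C+ cells against cMoP without Ly6C+ replicate 3 (1.17, adjusted p = 0.0294), and Ccl4 fell in blood Ly6Cint against Ly6C+ cells without Ly6Cint replicate 1 (-1.65, adjusted p = 0.008). Ccl5 rose in blood Ly6C- against Ly6Cint cells without Ly6Cint replicate 3 (1.58, adjusted p = 0.0269). Without marrow Ly6C- replicate 1, Tnf fell in marrow Ly6C- against Ly6C+ cells (-1.41, adjusted p = 0.0471). Without blood Ly6C- replicate 1, Il1rn was lower in marrow than in blood Ly6C- cells (-1.70, adjusted p = 0.00623). With the compared groups fitted alone, no member was called in blood Ly6C- against Ly6Cint cells or in marrow against blood Ly6C- cells.

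The log2 ratio of Ly6C- to Ly6C+ cells was itself tested between the tissues, as marrow minus blood. It was larger in marrow for Ccl5 (3.61 ± 0.57, adjusted p = 4.11e-05), Il1b (2.77 ± 0.53, adjusted p = 4.31e-04) and Ccl4 (2.19 ± 0.64, adjusted p = 0.0168). For Cxcl10 it was less negative in marrow (3.17 ± 0.54, adjusted p = 1.05e-04), and for Tnf it was lower in marrow (-3.04 ± 0.78, adjusted p = 0.00687). These were 5 of the 8 members, 4 upward and 1 downward, beside 3.53% and 14.3% of all genes tested. With quantile scaling, 843 of 1812 called genes were higher, against 401 of 2026 as fitted here. Marrow Ly6C+ libraries averaged 1.72 ± 1.26 RPM of Il1b (SD, n = 3) and blood Ly6C+ libraries 26.5 ± 9.63 RPM (SD, n = 4), while the Ly6C- libraries of the tissues overlapped. For Ccl5 marrow Ly6C+ libraries averaged 1.86 ± 0.434 RPM and blood Ly6C+ libraries 28.9 ± 8.37 RPM. Tissue macrophage markers, summed over 12 genes, were at 738 to 1039 RPM in marrow Ly6C- and 230.4 to 332 RPM in marrow Ly6C+ libraries. In blood they were at 625 to 981 RPM in Ly6C- and 284 to 706 RPM in Ly6C+ libraries. Their part in these differences was not tested.

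Divided by transcript length, which allows levels of different genes to be compared, the leading member changed with the population. In RPM per kilobase, Ccl5 led in MDP at 19.9. Cxcl10 led in cMoP at 3.99, in marrow Ly6C+ cells at 47.2 and in blood Ly6C+ cells at 87.6. Il1b led in blood Ly6Cint cells at 63.7, in blood Ly6C- cells at 155 and in marrow Ly6C- cells at 101. In blood Ly6C- cells it was followed by Ccl5 at 40.9, Il1rn at 17.1 and Tnf at 15.2 RPM per kilobase. In blood Ly6C+ cells Cxcl10 was followed by Ccl5 at 54.3, Il1rn at 20.2 and Il1b at 19.5 RPM per kilobase. The lengths, 532 bases for Ccl5 to 1639 bases for Tnf, are those of 1 transcript per gene. In each of these 7 populations the leading member was the same without division by length.

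The genes most like each member over the 25 libraries of the 7-week table are given with Pearson's r of log2(RPM + 1), as a description, since libraries of a group share their population. Il1b was followed most closely by Pltp (0.98), Nfkbiz (0.97) and Pdgfb (0.97), of which Nfkbiz encodes a nuclear regulator of NF-kappaB and Pltp a phospholipid transfer protein. Il1rn ran with Ptgir (0.95) and Plaur (0.94). Cxcl10 ran with F5 (0.93), Cd177 (0.89) and Chil3 (0.87), and F5 encodes a coagulation factor. Ccl2 ran with Chil3 (0.90), Cd177 (0.88) and Tmsb10 (0.87), so Chil3 and Cd177 stood beside both Ccl2 and Cxcl10. Nearest to Ccl5 were Tspan13 (0.87), Tef (0.85) and Csnk1e (0.85), and nearest to Ccl4 Ms4a7 (0.83), Ccpg1 (0.83) and Abcg1 (0.83). For Tnf they were Ccndbp1 (0.82), Ginm1 (0.77) and Vasp (0.73), and for Ccl3 Usp18 (0.77) and Bcl2l11 (0.77). Among the members themselves r was highest for Ccl2 with Cxcl10 (0.74) and Ccl4 with Ccl5 (0.73), and lowest for Tnf with Cxcl10 (-0.20).

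The interferon response list, genes of the pathway that also drives Cxcl10, is given by its counts. In marrow Ly6C+ cells against cMoP 19 of 20 tested genes rose and 0 fell (median log2 ratio 2.54), beside 15.3% of all genes that rose and a median of -0.17. Irf7, a factor that amplifies the interferon response, averaged 205 RPM in marrow Ly6C+ cells against 7.56 RPM in cMoP. In blood Ly6C- against Ly6C+ cells 0 of 20 tested genes rose and 14 fell (median log2 ratio -1.41), beside 10.5% of all genes that fell and a median of 0.00. Isg15, a ubiquitin-like interferon target, averaged 21.5 RPM in blood Ly6C- against 183 RPM in blood Ly6C+ cells, and Ifit3, an antiviral protein, 13.1 RPM in blood Ly6C- against 66.9 RPM in blood Ly6C+ cells. In marrow Ly6C- against Ly6C+ cells, where Cxcl10 fell, 2 of 20 tested genes rose and 3 fell (median log2 ratio -0.17), beside 11% and 29.1% of all genes and a median of -0.28, so the list fell no more often than all genes. For single genes of the list, the log2 ratio of Ly6C- to Ly6C+ cells was higher in marrow for Isg15 (marrow minus blood 2.42, adjusted p = 2.12e-05) and Ifit3 (2.95, adjusted p = 4.15e-05). Of all genes tested, 3.53% were called higher in this way. The part of this pathway in the levels of Cxcl10 was not tested.

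NF-kappaB, the factor family that induces Il1b and Tnf in stimulated cells, is checked by feedback genes that it induces. In blood Ly6C- against Ly6C+ cells 6 of 22 tested genes rose and 2 fell (median log2 ratio 0.33) in that list, beside 9.86% and 10.5% of all genes. In marrow 10 of 22 tested genes rose and 1 fell (median log2 ratio 0.47), beside 11% and 29.1% of all genes. Traf1, a TNF receptor associated factor, averaged 45.1 RPM in blood Ly6C- against 2.39 RPM in blood Ly6C+ cells and 26.3 RPM in marrow Ly6C- against 1.11 RPM in marrow Ly6C+ cells. Nfkbiz averaged 89.8 RPM in blood Ly6C- against 22.1 RPM in blood Ly6C+ cells and 106 RPM in marrow Ly6C- against 6.61 RPM in marrow Ly6C+ cells. In marrow Ly6C+ cells against cMoP 12 of 22 tested genes rose and 2 fell (median log2 ratio 0.91), beside 15.3% of all genes that rose, with Nfkbia, the NF-kappaB inhibitor, at 301 RPM in marrow Ly6C+ cells against 72.2 RPM in cMoP. Cytokine mRNA with AU-rich elements is bound by decay and stability factors, and of these 3 of 10 tested genes rose and 0 fell (median log2 ratio 0.37) in blood Ly6C- against Ly6C+ cells and 5 of 10 tested genes rose and 2 fell (median log2 ratio 0.67) in marrow. Zfp36l1, which speeds decay, averaged 118 RPM in blood Ly6C- against 13.7 RPM in blood Ly6C+ cells and 116 RPM in marrow Ly6C- against 6.48 RPM in marrow Ly6C+ cells. Of genes that process interleukin 1 or shed TNF, 1 of 11 tested genes rose and 3 fell (median log2 ratio -0.18) in blood, where the shares of all genes were 9.86% and 10.5%. Of those that fell, Pycard, the inflammasome adaptor, averaged 204 RPM in blood Ly6C- against 345 RPM in blood Ly6C+ cells and Mefv, which encodes pyrin, 24.7 RPM in blood Ly6C- against 82.5 RPM in blood Ly6C+ cells.

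The counts that follow stand beside 9.86% higher and 10.5% lower of all genes in blood, and 11% and 29.1% in marrow. Of receptors for the members, 2 of 13 tested genes rose and 1 fell (median log2 ratio -0.25) in blood Ly6C- against Ly6C+ cells and 4 of 13 tested genes rose and 2 fell (median log2 ratio -0.07) in marrow. Ccr1, a receptor that binds Ccl3 and Ccl5, averaged 2.94 RPM in marrow Ly6C- against 69.6 RPM in marrow Ly6C+ cells. Of other cytokines and chemokines 1 of 20 tested genes rose and 4 fell (median log2 ratio -0.29) in blood and 5 of 20 tested genes rose and 5 fell (median log2 ratio -0.13) in marrow. Ltb, a membrane-bound cytokine of the TNF family, averaged 276 RPM in blood Ly6C- against 27.1 RPM in blood Ly6C+ cells and 211 RPM in marrow Ly6C- against 5.92 RPM in marrow Ly6C+ cells. Immediate early genes are switched on soon after a stimulus. Their summed level was 2417 to 3812 RPM in blood Ly6C-, 1772 to 1984 RPM in Ly6Cint and 1647 to 2272 RPM in Ly6C+ libraries. In marrow it was 1965 to 2407 RPM in Ly6C- and 629.98 to 759.7 RPM in Ly6C+ libraries, and its part in the differences of Il1b and Tnf was not tested.

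In the knockout table, Cebpb, which encodes C/EBPb, was at 115 and 57.2 RPM in ko Ly6C+ libraries and 804 and 693 RPM in wt Ly6C+ libraries. In Ly6Cint cells it was at 186 and 67.1 RPM in ko and 1734 and 1242 RPM in wt libraries. The log2 ratio of Cebpb was -3.19 (adjusted p = 5.51e-04) in Ly6C+ and -3.70 (adjusted p = 4.82e-05) in Ly6Cint cells. No member was called between ko and wt cells. In Ly6C+ cells 0 of 9 were called by limma (1 at an unadjusted p under 0.05, 0 with edgeR and 0 with DESeq2), beside 1.26% of all genes tested. In Ly6Cint cells 0 of 9 were called (0 at an unadjusted p under 0.05, 0 with edgeR and 0 with DESeq2), beside 6.33%. The median log2 ratio of the members was -0.34 in Ly6C+ and 0.30 in Ly6Cint cells, against 0.02 and 0.07 over all genes. The difference between ko and wt cells was called as unequal in Ly6Cint and Ly6C+ cells for 0 of 9 (1 at an unadjusted p under 0.05, 0 with edgeR and 0 with DESeq2), beside 0.00878%.

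Il1b was at 104 and 53.9 RPM in ko and 145 and 86.99 RPM in wt Ly6C+ libraries, which overlapped (-0.58 ± 0.47, adjusted p = 0.831). In Ly6Cint cells it was at 159.6 and 129.95 RPM in ko and 198 and 159 RPM in wt libraries (-0.30 ± 0.47, adjusted p = 0.823). In wt Ly6C- libraries it was at 629 and 251 RPM. All 4 ko libraries, of blood, held more Il1b than any marrow library of the same table. Tissue, age, strain and genotype all differ between these libraries and cannot be told apart. Il1rn was at 28.1 and 23.4 RPM in ko and 12.8 and 17.03 RPM in wt Ly6C+ libraries, without overlap and not called (0.76 ± 0.35, adjusted p = 0.521). In Ly6Cint cells Il1rn was at 19.3 and 20.7 RPM in ko and 14.5 and 11.7 RPM in wt libraries, again without overlap and not called (0.58 ± 0.35, adjusted p = 0.44). Tnf was at 7.18 and 10.4 RPM in ko and 4.63 and 9.43 RPM in wt Ly6C+ libraries (0.33 ± 0.41, adjusted p = 0.947). In Ly6Cint cells Tnf was at 13.6 and 17.2 RPM in ko and 14.3 and 32.5 RPM in wt libraries (-0.48 ± 0.41, adjusted p = 0.612). The wt Ly6C- libraries had 13.002 and 8.22 RPM of Il1rn and 53.3 and 50.8 RPM of Tnf, the highest Tnf of the table.

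The chemokines varied widely between replicates of Ly6Cint and Ly6C- cells. Cxcl10 was at 13.8 and 35.98 RPM in ko and 16.8 and 5.296 RPM in wt Ly6Cint libraries, and at 28.3 and 3.08 RPM in wt Ly6C- libraries. Ccl2 was at 4.28 and 23.6 RPM in ko and 6.0004 and 0.378 RPM in wt Ly6Cint libraries, and at 14.7 and 0.514 RPM in wt Ly6C- libraries. Its means in wt blood were 2.75 RPM in Ly6C+, 3.19 RPM in Ly6Cint and 7.59 RPM in Ly6C- cells. These groups overlapped, and the order of the 7-week table was not seen. Ccl3 was at 5.47 and 17.7 RPM in ko and 7.903 and 1.51 RPM in wt Ly6Cint libraries, and at 23.8 and 4.11 RPM in wt Ly6C- libraries. In each of these groups the same library was the higher one for all 3 genes, replicate 2 of ko Ly6Cint, replicate 1 of wt Ly6Cint and replicate 1 of wt Ly6C-. Ccl4 was at 4.04 and 10.7 RPM in ko and 10.98 and 2.27 RPM in wt Ly6Cint libraries, and at 22.5 and 10.3 RPM in wt Ly6C- libraries. Ccl5 was at 12.4 and 33.3 RPM in ko and 25.6 and 13.6 RPM in wt Ly6Cint libraries, and at 42.5 and 6.68 RPM in wt Ly6C- libraries. Cxcl2 was at 0.238 and 4.296 RPM in ko and 2.05 and 0.756 RPM in wt Ly6Cint libraries, and at 11.5 and 0 RPM in wt Ly6C- libraries. The same libraries were again the higher ones, and for all 6 chemokines ko and wt Ly6Cint libraries overlapped. The log2 ratios of ko to wt Ly6Cint cells were 1.88 ± 0.98 for Ccl2, 1.22 ± 0.90 for Ccl3 and 1.14 ± 0.78 for Cxcl10. They were 0.30 ± 0.68 for Ccl4, 0.12 ± 0.72 for Ccl5 and 0.15 ± 0.86 for Cxcl2, and the lowest adjusted p of the 6 was 0.341. No member was called without any 1 of these 4 libraries.

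In Ly6C+ cells Cxcl10 was at 30.01 and 20.1 RPM in ko and 37.9 and 26.2 RPM in wt libraries (-0.34 ± 0.78, adjusted p = 0.997), and Ccl2 at 5.22 and 7.79 RPM in ko and 1.54 and 3.95 RPM in wt libraries (1.06 ± 0.98, adjusted p = 0.885). Ccl5 was at 9.79 and 1.95 RPM in ko and 8.37 and 12.8 RPM in wt libraries (-1.01 ± 0.72, adjusted p = 0.786). Ccl4 was at 2.61 and 0.6496 RPM in ko and 3.31 and 6.69 RPM in wt libraries (-1.24 ± 0.68, adjusted p = 0.638). Ccl3 was at 0.652 and 0 RPM in ko and 1.32 and 5.78 RPM in wt libraries, and Cxcl2 at 0.652 RPM or less in all 4. The ko and wt libraries did not overlap for Ccl2, higher in ko, and for Ccl3 and Ccl4, lower in ko. Neither these splits nor that of Il1rn were called. With 2 libraries in each group such a split also arises without a difference, and its share over all genes is not given here. Markers of T and NK cells were at 13.7 to 29.9 RPM in ko and 2.64 to 3.35 RPM in wt Ly6C+ libraries, with Cd3e at 0 in all. Tissue macrophage markers were at 560.1 to 898 RPM in ko and 297 to 303 RPM in wt Ly6Cint libraries. The immediate early sum was 3270.1 to 3805 RPM in ko Ly6Cint and 3844 to 5143 RPM in wt Ly6Cint libraries.

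**Figure D3:**
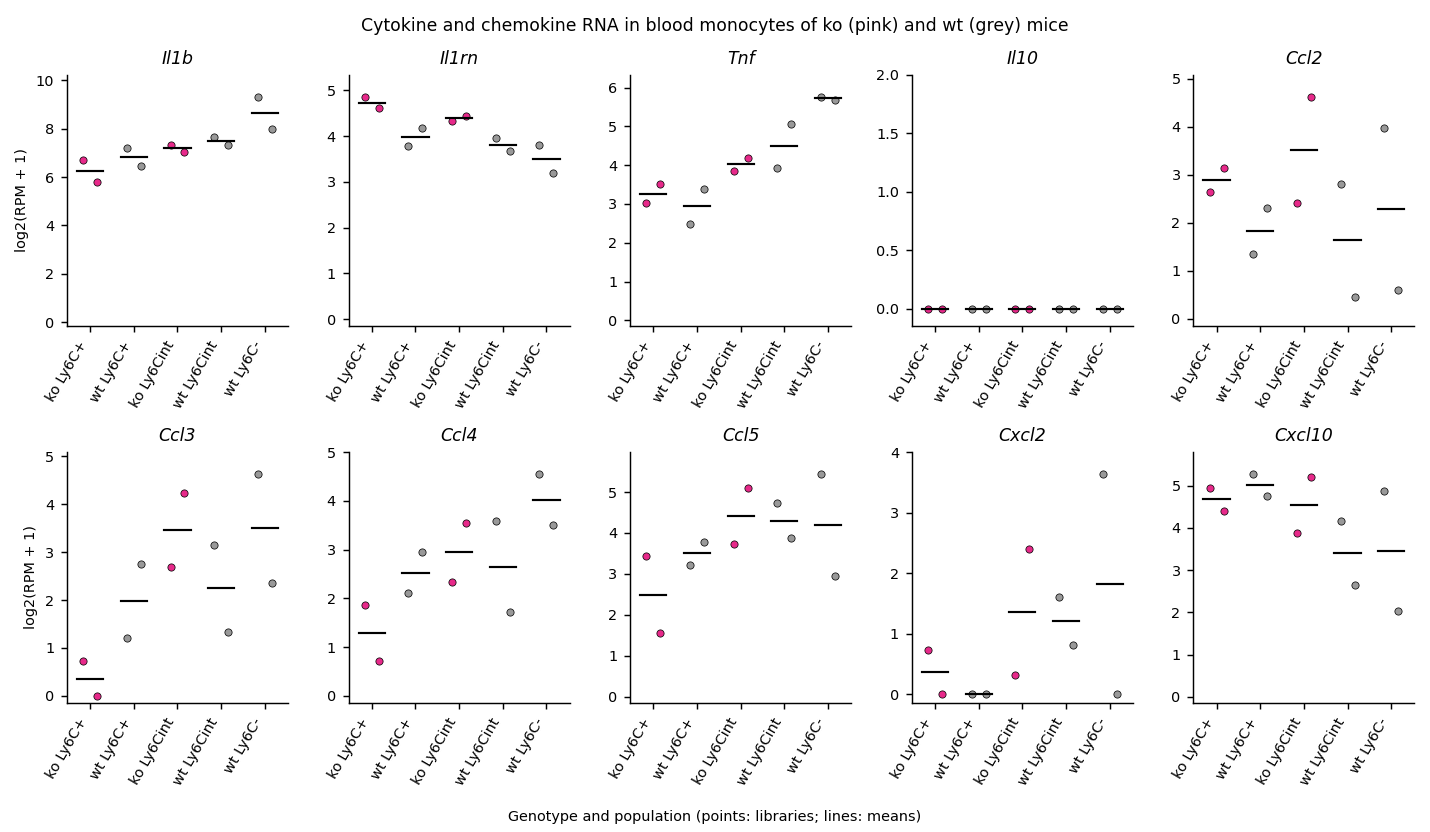
Level of each of the 10 genes in blood monocytes of ko and wt mice, as log2(RPM + 1) on the vertical axis with a scale of its own for each gene, with ko to the left of wt within Ly6C+ and Ly6Cint cells and wt Ly6C- cells at the right. Points are libraries (n = 2 per group) and lines are means. The 2 libraries of a group lie far apart for Ccl2, Ccl3 and Cxcl2 in ko Ly6Cint and wt Ly6C- cells.

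Between ko and wt Ly6Cint cells 5 of 20 tested genes rose and 0 fell (median log2 ratio 0.66) in the interferon list, beside 3.63% of all genes that rose and a median of 0.07. Ifi44, an interferon target, averaged 145 RPM in ko Ly6Cint against 5.45 RPM in wt Ly6Cint cells and Isg15 249 RPM in ko Ly6Cint against 61.9 RPM in wt Ly6Cint cells. Ifi44 was also called between ko and wt Ly6C+ cells, at 279.8 RPM in ko Ly6C+ against 7.87 RPM in wt Ly6C+ cells, and was the 1 interferon gene called there. Cxcl10, another interferon target, was not called in Ly6Cint cells (1.14 ± 0.78, adjusted p = 0.499). Among other cytokines and chemokines 1 of 25 tested genes rose and 1 fell (median log2 ratio 0.30), beside 3.63% and 2.7% of all genes. Ltb averaged 49.95 RPM in ko Ly6Cint against 285 RPM in wt Ly6Cint cells and the chemokine Ccl9 1134 RPM in ko Ly6Cint against 554 RPM in wt Ly6Cint cells.

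Between populations of wt blood, Tnf rose in Ly6Cint against Ly6C+ cells (1.57 ± 0.41, adjusted p = 0.042), the 1 member of 9 called, beside 2.1% of all genes that rose. The call ended without wt Ly6C+ replicate 1 (1.12, adjusted p = 0.393) or 2 (2.01, adjusted p = 0.052) and without Ly6Cint replicate 2 (1.00, adjusted p = 0.198). It also ended with array weights (1.57, adjusted p = 0.0586). Between wt Ly6C- and Ly6Cint cells 0 of 9 were called (2 at an unadjusted p under 0.05, 0 with edgeR and 0 with DESeq2), beside 0.448% of all genes. Both Ly6C- libraries were above both Ly6Cint libraries for Tnf (1.23 ± 0.41, adjusted p = 0.295) and Il1b (1.16 ± 0.47, adjusted p = 0.445). Between ko Ly6Cint and Ly6C+ cells 0 of 9 were called (3 at an unadjusted p under 0.05, 0 with edgeR and 0 with DESeq2), beside 1.64%. Ccl3 was at 5.47 and 17.7 RPM in ko Ly6Cint and 0.652 and 0 RPM in ko Ly6C+ libraries. Its ratio of summed reads was 34.5 (95% exact interval 6.03 to 1377), with adjusted p = 0.112, and array weights called it (adjusted p = 0.0461).

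The marrow steps of 8-week mice were tested in the same table. In Ly6C+ cells against cMoP, Il1rn and Cxcl10 rose, 2 of 9 members, beside 16.3% of all genes. Cxcl10 was at 52.8 and 55.8 RPM in Ly6C+ and 2.63 and 11.9 RPM in cMoP libraries (3.02 ± 0.78, adjusted p = 0.00719). Leaving out cMoP replicate 1 ended the call (2.10, adjusted p = 0.0981). Il1rn was at 13.5 and 10.8 RPM in Ly6C+ and 0.438 and 0.6245 RPM in cMoP libraries, a ratio of summed reads of 24.02 (95% exact interval 6.17 to 206) with adjusted p = 1.19e-05. Ccl2 was at 4.29 and 4.996 RPM in Ly6C+ and 0 and 0.6245 RPM in cMoP libraries, a ratio of 17.8 (95% exact interval 2.68 to 758) that was not called (adjusted p = 0.101). Between cMoP and MDP 0 of 9 were called (1 at an unadjusted p under 0.05, 0 with edgeR and 0 with DESeq2), beside 4.85% of all genes. Ccl5 was at 2.63 and 2.498 RPM in cMoP and 15.7 and 17.6 RPM in MDP libraries, without overlap (-2.31 ± 0.72, adjusted p = 0.0876). Neutrophil markers were at 3461 to 4282 RPM in these cMoP and 3839.6 to 4766 RPM in these MDP libraries. In the 7-week table they were at 82.9 to 115 RPM in cMoP and 89.97 to 145 RPM in MDP, and their part was not tested. Il1b was at 4.29 and 5.83 RPM in 8-week Ly6C+, 6.57 and 3.12 RPM in cMoP and 5.37 and 1.95 RPM in MDP libraries.

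In the transfer table Il1b was at 5.697 and 8.76 RPM before transfer. Grafts in blood had 208 and 39.001 RPM at 24 h, 505 and 433 RPM at 36 h and 383 and 255 RPM at 48 h. Grafts in spleen had 150.3 and 73.2 RPM at 24 h, 294 and 273 RPM at 36 h and 281 and 297 RPM at 48 h. Every graft library lay above both libraries before transfer. At 24 h the log2 ratio to before transfer was 3.498 ± 0.57, adjusted p = 2.19e-04 in blood and 3.71 ± 0.57, adjusted p = 1.97e-04 in spleen. Both calls ended with the compared groups fitted alone (adjusted p = 0.162 in blood and 0.0786 in spleen). Between 48 and 24 h the log2 ratio of Il1b was 1.78 ± 0.57, adjusted p = 0.0584 in blood and 1.45 ± 0.57, adjusted p = 0.193 in spleen, neither called. In blood the step was called with the replicate letter as a block (1.78, adjusted p = 0.0373) and without the 24 h library AC (2.97, adjusted p = 0.0012). Tnf was at 10.5 and 9.64 RPM before transfer. Blood grafts had 63.98 and 26.7 RPM at 24 h, 50.8 and 35.5 RPM at 36 h and 34.6 and 83.7 RPM at 48 h. Spleen grafts had 25.4 and 37.7 RPM at 24 h, 40.3 and 14.03 RPM at 36 h and 42.1 and 44.7 RPM at 48 h, so all graft libraries again lay above the start. Tnf rose in blood at 24 h (1.94 ± 0.62, adjusted p = 0.0418), and in spleen its log2 ratio was 1.53 ± 0.62, adjusted p = 0.197. The blood call ended without the 24 h library AC (1.32, adjusted p = 0.244) and without library A (2.00, adjusted p = 0.162) or B (1.88, adjusted p = 0.191) of the cells before transfer. It also ended with the replicate letter as a block (1.70, adjusted p = 0.123).

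Il1rn was at 18.8 and 17.5 RPM before transfer and was called in none of these steps with all libraries. Without the blood library AC of 24 h, which left 1 library at 0, Il1rn was called in blood at 24 h against before transfer (adjusted p = 0.0217) and at 48 h against 24 h (adjusted p = 0.0267). Blood grafts had 21.9 and 0 RPM at 24 h, 3.94 and 7.01 RPM at 36 h and 17.97 and 17.97 RPM at 48 h. Spleen grafts had 17.1 and 5.26 RPM at 24 h, 23.7 and 28.5 RPM at 36 h and 0 and 12.3 RPM at 48 h, so libraries of 1 group differed by up to their whole level. Ccl3 was at 10.5 and 4.38 RPM before transfer and was likewise not called. It had 0 and 0 RPM at 24 h, 6.13 and 7.01 RPM at 36 h and 6.13 and 0 RPM at 48 h in blood, and 5.696 and 7.45 RPM at 24 h, 20.2 and 11.4 RPM at 36 h and 0 and 0 RPM at 48 h in spleen. Cxcl2 was at 0 and 0.438 RPM before transfer and at 0 in all 12 graft libraries.

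Cxcl10 was at 86.8 and 95.97 RPM before transfer. In blood grafts it was listed at 0 in both libraries of 24 h, at 13.6 and 14.03 RPM at 36 h and at 26.3 and 0 RPM at 48 h. In spleen grafts it was at 37.2 and 61.8 RPM at 24 h, 18.4 and 18.4 RPM at 36 h and 0 and 0 RPM at 48 h. Every graft library lay below both libraries before transfer. Against a floor of 3 estimated reads over the group, Cxcl10 was at least 44.8-fold lower in blood grafts of 24 h than before transfer (adjusted p = 5.93e-04). In spleen grafts of 24 h it was not called (-0.91 ± 1.17, adjusted p = 0.819). It was at least 23.2-fold lower in spleen grafts at 48 h than at 24 h (adjusted p = 0.0125). This call ended without spleen library C of 24 h (adjusted p = 0.11) and with array weights (adjusted p = 0.159). Blood grafts of 24 h and 48 h and spleen grafts of 48 h had the fewest genes above 0, 7734 to 8761, against 11574 to 11719 before transfer. The part of this in the values of 0 was not tested. In the interferon list 0 of 20 tested genes rose and 3 fell (median log2 ratio -1.62) in spleen grafts of 48 h against 24 h, and 0 of 20 tested genes rose and 3 fell (median log2 ratio -0.76) in blood grafts. Of all genes tested, 2.1% fell in spleen and 3.67% in blood, with medians of -0.16 and 0.00. Oasl1, an interferon target, was called in both, at 0 RPM in spleen grafts of 48 h against 48.6 RPM in spleen grafts of 24 h and 0 RPM in blood grafts of 48 h against 28.3 RPM in blood grafts of 24 h.

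Ccl2 was at 17.5 and 18.8 RPM before transfer. Blood grafts had 0 and 0 RPM at 24 h, 3.94 and 10.1 RPM at 36 h and 0 and 0 RPM at 48 h. Spleen grafts had 1.75 and 0 RPM at 24 h, 0 and 2.63 RPM at 36 h and 0 and 0 RPM at 48 h, and every graft library lay below both libraries before transfer. Against the floor of 3 estimated reads, Ccl2 was at least 9.01-fold lower in blood grafts of 24 h than before transfer (adjusted p = 0.00108). These blood grafts had 8278 and 8109 genes above 0, and the part of this in the values of 0 was not tested. In spleen grafts of 24 h Ccl2 was lower by a ratio of summed reads of 19.5 (95% exact interval 5.22 to 164), with adjusted p = 0.00915. The spleen call ended without spleen library C (adjusted p = 0.152) and without library A or B before transfer (adjusted p = 0.0735 and 0.0791). It also ended with edgeR on estimated reads (adjusted p = 0.114). Ccl4 was at 3.94 and 8.76 RPM before transfer. It had 0 and 0 RPM at 24 h, 3.94 and 8.33 RPM at 36 h and 0 and 0 RPM at 48 h in blood. In spleen it had 1.75 and 0.876 RPM at 24 h, 1.75 and 14.03 RPM at 36 h and 0 and 0 RPM at 48 h, where the 36 h libraries spanned the level before transfer. Its fall in blood at 24 h, at least 3.04-fold against the same floor (adjusted p = 0.0366), ended without any 1 of the 4 libraries. It also ended with edgeR on estimated reads (adjusted p = 0.0978).

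Ccl5 was at 11.4 and 14.5 RPM before transfer. Grafts in blood held 18.8 and 45.6 RPM at 24 h, 52.1 and 42.5 RPM at 36 h and 144 and 21.5 RPM at 48 h. Grafts in spleen held 80.2 and 68.8 RPM at 24 h, 124 and 300.2 RPM at 36 h and 85.9 and 82.8 RPM at 48 h. All graft libraries lay above both libraries before transfer. The rise in spleen at 24 h (2.44 ± 0.65, adjusted p = 0.0264) ended without any 1 of the 4 libraries (adjusted p = 0.0924 to 0.208) and with the replicate letter as a block (2.08, adjusted p = 0.141). In blood at 24 h Ccl5 was not called (1.14 ± 0.65, adjusted p = 0.272). Markers of T and NK cells had a sum of 3.94 to 7.89 RPM before transfer. In spleen grafts it was 149.9 to 244 RPM at 24 h, 133 to 423 RPM at 36 h and 29.8 to 40.8 RPM at 48 h. Of the 15 markers, 1 was at 0 in both spleen libraries of 24 h, 0 at 36 h and 9 at 48 h. Cd3e was at 5.26 to 12.7 RPM at 24 h, 3.51 to 8.33 RPM at 36 h and 0 at 48 h. Ncr1 was at 0 at 24 and 48 h and at 0 to 15.8 RPM at 36 h. Tissue macrophage markers had a sum of 464 to 500.4 RPM before transfer, 603 to 1418 RPM in spleen grafts at 24 h and 1802 to 5181 RPM at 36 h. The part of these cell types in Ccl5 was not tested.

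**Figure D4:**
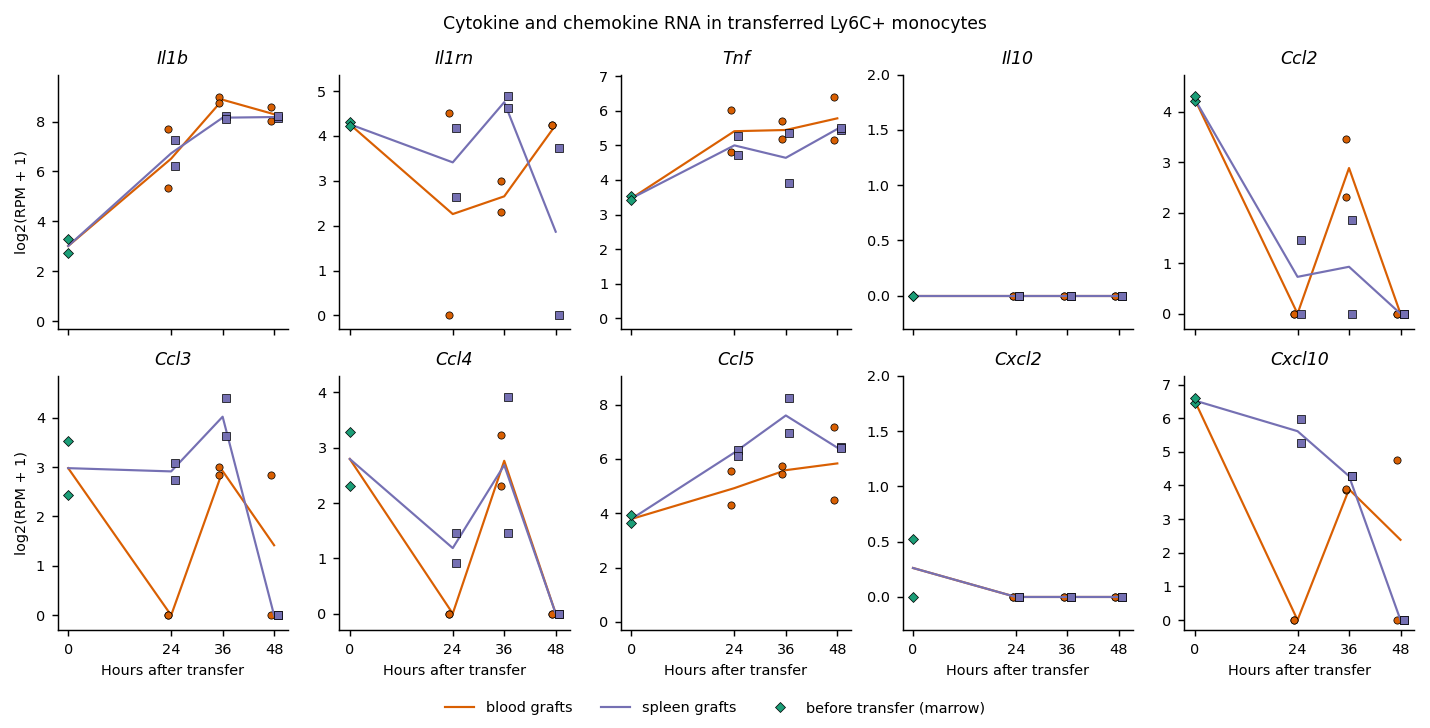
Level of each of the 10 genes in transferred monocytes, as log2(RPM + 1) on the vertical axis with a scale of its own for each gene, against hours after transfer, with the marrow cells before transfer at 0 h (green diamonds). Circles are blood grafts and squares spleen grafts (n = 2 per time and tissue), with lines through their means. Il1b and Tnf are above their start at every time, and Cxcl10 is at 0 in blood grafts at 24 h and spleen grafts at 48 h.

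By count, 2 of 9 members rose and 3 fell in blood grafts at 24 h against before transfer, beside 2.98% and 10.3% of all genes (medians -2.002 and -0.53 for members and all genes). In spleen grafts 2 rose and 1 fell, beside 2.89% and 2.91% (medians -0.26 and -0.21). Both comparisons share the libraries before transfer. Between 48 and 24 h 0 of 9 were called in blood (1 at an unadjusted p under 0.05, 1 with edgeR on estimated reads), beside 8.09% of all genes. In spleen 1 fell, beside 2.1%. Over the 3 times, 0 of 9 were called between spleen and blood grafts (1 at an unadjusted p under 0.05, 0 with edgeR on estimated reads), beside 3.78%, with Ccl5 nearest (1.30 ± 0.38, adjusted p = 0.0558). Ccl5 was called there without blood library B of 24 h (1.51, adjusted p = 0.0242), blood library AC of 48 h (1.75, adjusted p = 0.00159) or spleen library B of 36 h (1.51, adjusted p = 0.0407). Without blood library AC of 48 h Cxcl10 was called there too (adjusted p = 0.0313). Without blood library B of 48 h, Ccl5 and Cxcl10 were called in blood at 48 h against 24 h (adjusted p = 0.0265 and 0.0107). The change between 48 and 24 h was called as unequal in spleen and blood for Cxcl10, 1 of 9 (adjusted p = 0.0119), beside 1.98% of all genes. With quantile scaling, 512 of 1131 called genes were higher, against 361 of 1609 as fitted here in blood grafts at 24 h. In the same form it was 54 of 187 against 38 of 292 for spleen grafts of 48 h against 24 h, 126 of 222 against 350 of 457 for spleen against blood grafts and 67 of 153 against 78 of 318 for the difference between the tissues. With edgeR on estimated reads it was 404 of 549 against 349 of 701 for spleen grafts at 24 h. As an unequal change between the tissues Il1rn was called without blood library AC of 24 h (adjusted p = 0.0306) and Ccl3 without blood library B of 48 h (adjusted p = 0.0381). With array weights the unequal change of Cxcl10 was not called (adjusted p = 0.318). Immediate early genes had a sum of 7031 to 7491 RPM in blood grafts of 24 h and 3248 to 4526 RPM in spleen grafts of 24 h, against 1733 to 1736 RPM before transfer. Nr4a1, an immediate early gene that Ly6C- monocytes also need, averaged 1009 RPM in blood grafts of 24 h against 55.4 RPM in cells before transfer. The part of these genes in the rise of Il1b and Tnf was not tested.

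Host monocytes were sorted from spleen and blood, and the Ly6C names used for them stand for Gr1 gates. Il1b in spleen was at 313 and 468 RPM in Ly6C-, 167 and 339.6 RPM in Ly6Cint and 79.3 and 149 RPM in Ly6C+ libraries. In blood it was at 1119.7 and 673 RPM in Ly6C-, 471 and 194 RPM in Ly6Cint and 192 and 116 RPM in Ly6C+ libraries. In each tissue both Ly6C- libraries lay above both Ly6C+ libraries. Cxcl10 in spleen was at 7.01 and 16.2 RPM in Ly6C-, 56.97 and 29.8 RPM in Ly6Cint and 95.9 and 102 RPM in Ly6C+ libraries. In blood Cxcl10 was at 0 and 3.94 RPM in Ly6C-, 14.02 and 0.876 RPM in Ly6Cint and 90.7 and 53.03 RPM in Ly6C+ libraries, so in each tissue both Ly6C- libraries lay below both Ly6C+ libraries. Tnf in spleen was at 35.9 and 58.7 RPM in Ly6C-, 13.6 and 44.3 RPM in Ly6Cint and 13.1 and 16.2 RPM in Ly6C+ libraries. In blood Tnf was at 110.4 and 92.04 RPM in Ly6C-, 55.6 and 38.99 RPM in Ly6Cint and 24.98 and 35.9 RPM in Ly6C+ libraries. Il1rn in spleen was at 10.5 and 11.8 RPM in Ly6C-, 25.9 and 17.97 RPM in Ly6Cint and 32.4 and 23.7 RPM in Ly6C+ libraries. In blood Il1rn was at 7.45 and 29.4 RPM in Ly6C-, 3.94 and 17.1 RPM in Ly6Cint and 28.5 and 20.6 RPM in Ly6C+ libraries, with overlap between groups.

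Blood Ly6C+ host cells had the highest Ccl2, Ccl4 and Cxcl2 of the host groups. Cxcl2 was at 0 and 1.75 RPM in blood Ly6Cint and 39.4 and 19.3 RPM in blood Ly6C+ libraries. Besides 1 wt Ly6C- library, no other library of the series held Cxcl2 above 5.26 RPM, each on the scale of its own table. Ccl4 was listed at 0 in both blood Ly6Cint libraries, against 25.9 and 17.97 RPM in blood Ly6C+ libraries. Ccl2 was at 3.94 and 4.38 RPM in blood Ly6Cint and 58.7 and 35.1 RPM in blood Ly6C+ libraries. In all other host groups Ccl2 was at most 5.26 RPM, Ccl4 at most 14.02 RPM and Cxcl2 at most 5.26 RPM. In Ly6Cint against Ly6C+ host cells of blood 2 of 9 members fell, beside 0.413% of all genes. Ccl4 fell at least 12.4-fold (adjusted p = 0.00696), and Cxcl2 by a ratio of summed reads of 25.04 (95% exact interval 6.59 to 212), with adjusted p = 0.00172. Ccl2 was not called (-3.17 ± 0.81, adjusted p = 0.0618), though it was with quantile scaling (-3.67, adjusted p = 0.00451) and array weights (-3.17, adjusted p = 0.0149). Without Ly6C+ library A neither fall was called (adjusted p = 0.118 and 0.0578). The fall of Ccl4 also ended without Ly6Cint library A or B (adjusted p = 0.0526 and 0.0774). With edgeR on estimated reads neither was called (adjusted p = 0.0724 and 0.49). Neutrophil markers were at 211 to 243 RPM in blood Ly6Cint and 312 to 341 RPM in blood Ly6C+ libraries, with S100a8 at 1.31 to 6.14 RPM in the Ly6C+ libraries.

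Over the 3 host populations, Ccl5 was higher in spleen than in blood (1.73 ± 0.38, adjusted p = 0.0259) and Cxcl2 lower (-1.79 ± 0.40, adjusted p = 0.0296). That was 1 of 9 members in each direction, beside 0.479% and 0.372% of all genes. Ccl5 in spleen was at 40.8 and 57.4 RPM in Ly6C-, 78.4 and 112 RPM in Ly6Cint and 25.4 and 55.2 RPM in Ly6C+ libraries. In blood Ccl5 was at 7.45 and 7.89 RPM in Ly6C-, 25.8 and 22.8 RPM in Ly6Cint and 17.97 and 25.4 RPM in Ly6C+ libraries. Spleen Ly6C- and Ly6Cint libraries lay above the blood libraries of the same population, and 1 spleen Ly6C+ library met the blood level. Cxcl2 in spleen was at 1.31 and 2.63 RPM in Ly6C-, 0 and 0 RPM in Ly6Cint and 0 and 0 RPM in Ly6C+ libraries. In blood Cxcl2 was at 0 and 5.26 RPM in Ly6C-, 0 and 1.75 RPM in Ly6Cint and 39.4 and 19.3 RPM in Ly6C+ libraries, so the tissues were apart in Ly6C+ cells and overlapped in the others. The call of Ccl5 ended without any 1 of 11 of the 12 libraries. Its highest adjusted p was 0.121, without spleen Ly6C+ library B. That of Cxcl2 ended without any 1 of 9 libraries, with an adjusted p of up to 0.108 without blood Ly6C- library B. Markers of T and NK cells were at 21.9 to 61.8 RPM in spleen and 5.26 to 24.5 RPM in blood host libraries. Cd3e reached 7.01 RPM in spleen and 0.876 RPM in blood, and the part of these cells in Ccl5 was not tested. Ccl3 was at most 10.96 RPM in spleen and 19.3 RPM in blood host libraries, and was not called.

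The other host steps gave no call among the 9 tested members. In blood Ly6C- against Ly6Cint cells 0 were called (4 at an unadjusted p under 0.05, 0 with edgeR on estimated reads), beside 0.107% of all genes. In spleen Ly6Cint against Ly6C+ cells 0 were called (1 at an unadjusted p under 0.05, 0 with edgeR on estimated reads), beside 0.562%, and in spleen Ly6C- against Ly6Cint cells 0 (1 at an unadjusted p under 0.05, 0 with edgeR on estimated reads), beside 0.215%. The step between Ly6Cint and Ly6C+ cells was called as unequal in spleen and blood for 0 members (2 at an unadjusted p under 0.05, 0 with edgeR on estimated reads), beside 0.00827%. For the step between Ly6C- and Ly6Cint cells the count was also 0 (0 at an unadjusted p under 0.05, 0 with edgeR on estimated reads), beside 0%. The log2 ratio of Il1b in Ly6C- against Ly6Cint cells was 0.68 ± 0.57, adjusted p = 1 in spleen and 1.52 ± 0.57, adjusted p = 0.703 in blood.

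**Figure D5:**
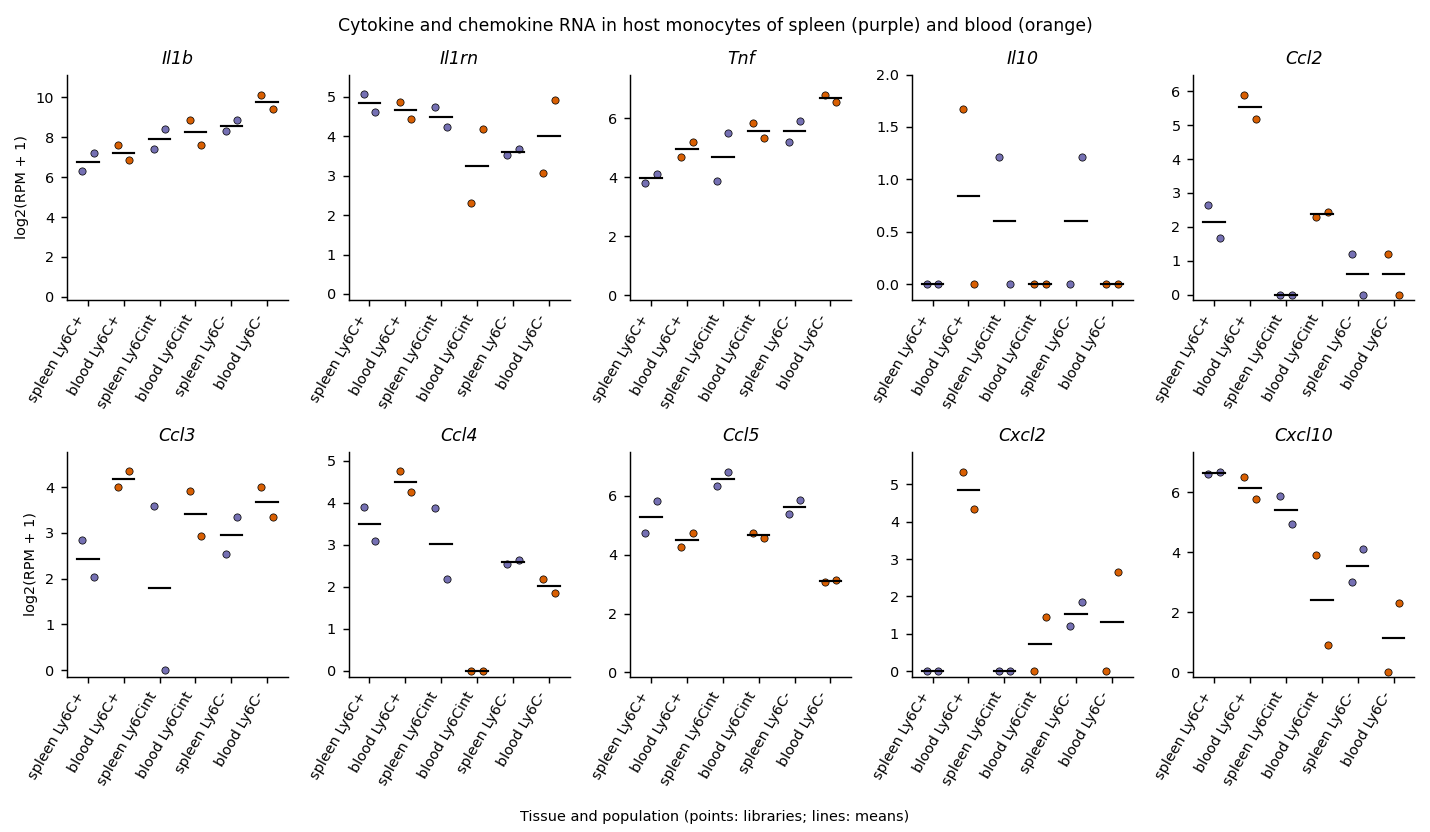
Level of each of the 10 genes in host monocytes, as log2(RPM + 1) on the vertical axis with a scale of its own for each gene, with spleen to the left of blood within Ly6C+, Ly6Cint and Ly6C- cells. Points are libraries (n = 2 per group) and lines are means. Il1b is highest in Ly6C- cells and Cxcl10 in Ly6C+ cells of both tissues, and Cxcl2 is high in the 2 blood Ly6C+ libraries.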

How the data were processed

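Polyadenylated RNA of sorted cells was sequenced in 67 libraries. Per the submitters' processing notes, HISAT 0.1.5 and HOMER were among the tools and mm9 was the build, while the counting options are not given in the sources used here. For the 7-week and the knockout table, the values deposited by the authors are a signal: reads per gene, scaled to a library total that was taken here as 10000000, which no source states. The values of a column are whole multiples of a single step, from which the reads were recovered (100% of values). In the transfer table the deposited values are a score, rounded after scaling to a shared total. Reads were estimated there from the step between low values, which 99.44 to 100% of values up to 400 matched.

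RPM is the deposited value rescaled to 1000000 from the assumed total of 10000000 in the 7-week and the knockout table. In the transfer table it is rescaled from the sum over the listed genes, so RPM there is on another scale. The main test was limma 3.58.1 in R 4.3.3 with a trend, on log2(RPM + 1), all groups of a table in 1 fit without a block. The filter kept genes with 2 RPM or more in 3 libraries of the 7-week table, or in 2 libraries of each other table, which left 11373, 11388 and 12096 genes. Alternatives were edgeR 4.0.16 and DESeq2 1.42.0 on reads, quantile scaling, scaling to the listed genes, pseudocounts of 0.5 and 5, no filter, array weights, a replicate block, the compared groups alone, and leaving out each library. The use of edgeR on estimated reads was chosen after the data were seen. Where a group held 3 reads or fewer, summed reads were compared with exact binomial intervals at 95%, which cover counting error only.

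All 10 members are named in the comparisons. Of each other gene list at most 4 called genes with the smallest p per comparison could be named, and for likeness the 3 genes with the highest r. Some named items are not reported here. The members and lists were chosen with earlier results of these data known. No replicates agreed within sampling noise (54 pairs, chi-square per degree of freedom at least 1.82). Of the sample columns 0 were left unmatched.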

Additional observations from a re-analysis of the deposited data

Results flagged for a closer look

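In the 7-week groups of 4 libraries, a library was set apart where its gap to the nearest other one, as a share of the range of the group, exceeded Dixon's critical value. Of 36 pairs of a member and a group 8 did, and several rest on 1 or 2 reads. Where only 1 library of a group held reads, it was set apart by construction, so the count is not set against chance. Replicate 1 of cMoP was high for Tnf (5.03 RPM) and low for Cxcl10 (3.02 RPM). Replicate 3 of cMoP held the only Ccl2 reads of its group (0.606 RPM). In marrow Ly6C- cells replicate 3 held the only Ccl2 (1.17 RPM) and Il10 reads (0.586 RPM). Replicate 3 of MDP was high for Ccl5 (14.8 RPM), and replicate 4 of MDP held the only Cxcl2 read (0.270 RPM). Replicate 4 of blood Ly6C+ cells was high for Ccl4 (7.31 RPM).

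The log2 ratio of Ly6C- to Ly6C+ cells differed between marrow and blood. Marrow minus blood, it was 3.61 ± 0.57, adjusted p = 4.11e-05 for Ccl5 and 3.17 ± 0.54, adjusted p = 1.05e-04 for Cxcl10. It was 2.77 ± 0.53, adjusted p = 4.31e-04 for Il1b, 2.19 ± 0.64, adjusted p = 0.0168 for Ccl4 and -3.04 ± 0.78, adjusted p = 0.00687 for Tnf. The change of Cxcl10 between 48 and 24 h differed between spleen and blood grafts by a fitted -8.00 (adjusted p = 0.0119). That value depends on the 1 RPM added, since both blood grafts of 24 h and both spleen grafts of 48 h were listed at 0.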

How the results depend on the processing

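Of 49 called member results, 26 held under every setting with all libraries, 23 also without any 1 library, and 0 reversed. The count of members called moved by more than 1.5 times in the comparisons that follow. As reported it was 1 in cMoP against MDP, 3 in blood Ly6Cint against Ly6C+, 4 in blood Ly6C- against Ly6Cint, 2 in marrow against blood Ly6C- and 1 in wt Ly6Cint against Ly6C+. It was 0 in ko Ly6Cint against Ly6C+, 2 in 8-week Ly6C+ against cMoP, 5 in blood grafts of 24 h, 3 in spleen grafts of 24 h and 0 in blood grafts 48 against 24 h. It was 1 in spleen grafts 48 against 24 h, 0 in spleen against blood grafts, 1 in the graft difference of tissues, 2 in spleen against blood hosts and 2 in host blood Ly6Cint against Ly6C+. With a pseudocount of 0.5 RPM it was 2 in cMoP against MDP and 1 in spleen against blood hosts. With array weights it was 3 in cMoP against MDP, 2 in blood Ly6C- against Ly6Cint, 0 in wt Ly6Cint against Ly6C+ and 1 in ko Ly6Cint against Ly6C+. It also gave 3 in blood grafts of 24 h, 0 in spleen grafts 48 against 24 h, 5 in spleen against blood hosts and 4 in host blood Ly6Cint against Ly6C+. It also gave 0 in the graft difference of tissues. With edgeR on recovered reads it was 3 in cMoP against MDP. With DESeq2 on recovered reads it was 3 in cMoP against MDP and 2 in blood Ly6C- against Ly6Cint. With the compared groups fitted alone it was 3 in cMoP against MDP, 1 in blood Ly6Cint against Ly6C+, 0 in blood Ly6C- against Ly6Cint and 0 in marrow against blood Ly6C-. It also gave 0 in wt Ly6Cint against Ly6C+, 2 in blood grafts of 24 h, 0 in spleen grafts of 24 h and 0 in spleen grafts 48 against 24 h. It also gave 0 in host blood Ly6Cint against Ly6C+ and 0 in the graft difference of tissues. With a pseudocount of 5 RPM it was 4 in marrow against blood Ly6C-, 3 in blood grafts of 24 h, 1 in spleen against blood grafts and 4 in host blood Ly6Cint against Ly6C+. With scaling to the listed genes it was 0 in wt Ly6Cint against Ly6C+. With no filter it was 0 in wt Ly6Cint against Ly6C+. With the replicate block it was 3 in blood grafts of 24 h and 1 in blood grafts 48 against 24 h. With edgeR on estimated reads it was 1 in blood grafts 48 against 24 h, 1 in spleen against blood hosts and 0 in host blood Ly6Cint against Ly6C+. Leaving out 1 library at a time it ranged over 2 to 3 in blood Ly6C- against Ly6Cint, 1 to 3 in marrow against blood Ly6C-, 0 to 1 in wt Ly6Cint against Ly6C+ and 1 to 2 in 8-week Ly6C+ against cMoP. It ranged over 3 to 4 in blood grafts of 24 h, 1 to 2 in spleen grafts of 24 h, 0 to 2 in blood grafts 48 against 24 h and 0 to 1 in spleen grafts 48 against 24 h. It ranged over 0 to 2 in spleen against blood grafts, 0 to 1 in spleen against blood hosts, 0 to 2 in host blood Ly6Cint against Ly6C+ and 1 to 2 in the graft difference of tissues. Fits of the compared groups alone, or without a library, rest on fewer libraries, and the cause of the other changes was not tested. The libraries share only replicate numbers: those of the same number deviated from their group means with r of -0.31 to 0.38 over 53 pairs, and 0 of 8 comparisons with 3 or more pairs had every r over 0.1. The replicate block ended 3 calls and added 1. Over all genes, edgeR on recovered reads against limma called 394 against 1009 in blood Ly6C- against Ly6Cint, 1976 against 3092 in blood Ly6Cint against Ly6C+, 299 against 552 in 8-week cMoP against MDP and 107 against 51 in wt Ly6C- against Ly6Cint. DESeq2 against limma called 1706 against 1052 in cMoP against MDP, 625 against 1009 in blood Ly6C- against Ly6Cint and 157 against 51 in wt Ly6C- against Ly6Cint. For the difference of ko and wt between Ly6Cint and Ly6C+ cells edgeR called 2 and DESeq2 39 against 1. With edgeR on estimated reads host Ly6C- against Ly6Cint gave 22 against 13 in blood and 41 against 26 in spleen, and the host difference of tissues in Ly6Cint against Ly6C+ gave 0 against 1. Counts over all genes moved by more than 1.5 times with the compared groups alone in 2 comparisons upward and 24 downward, of 30, and with array weights in 10 comparisons upward and 7 downward, of 30. The split of all called genes, as higher of called, was with edgeR against limma 402 of 913 against 413 of 721 in ko against wt Ly6Cint, 439 of 694 against 239 of 489 in wt Ly6Cint against Ly6C+, 218 of 299 against 208 of 552 in 8-week cMoP against MDP and 38 of 92 against 58 of 103 in spleen against blood hosts. Depth limits what can be said of members that rest on few reads, among them Il10, Cxcl2, Ccl2, Ccl3 and Ccl4.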
